A study of Mus musculus with 2 samples.

Results

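Nuclear receptors are transcription factors, many of which bind a small lipid-soluble ligand and then recruit coregulator proteins to their target genes. Many of the receptors bind DNA as partners of a retinoid X receptor, others bind as pairs of their own kind, and a few bind alone. Coactivators of the p160 family (Ncoa1, Ncoa2 and Ncoa3) bring histone acetyltransferases to ligand-bound receptors, and corepressors such as Ncor1 bring histone deacetylases to receptors without ligand. In skeletal muscle the glucocorticoid, thyroid hormone, peroxisome proliferator-activated (PPAR) and NR4A receptors are known for their control of fuel use, contractile protein isoforms and protein breakdown.

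The group described here holds 30 nuclear receptor and coregulator genes of mouse, listed by name, with the estrogen, progesterone and estrogen-related receptors left out. Of these, 28 were read by 1 probe set each that the platform annotation assigns to a single gene. Nr1h2 and Ncor1 had no such probe set and are not analysed here. They are set among the 18744 genes named in the same way, a figure without the olfactory and vomeronasal receptors.

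The study used C2C12, an established mouse myoblast line that fuses into multinucleated myotubes when serum is lowered. Cells were differentiated for 7 days in 2% horse serum and then exposed to virus for 48 h (multiplicity of infection 30). The control culture received Ad-DsRed, an adenovirus for the red fluorescent protein DsRed, and the other culture received Ad-caERα, an adenovirus for a constitutively active estrogen receptor α. Both groups therefore carried an adenovirus, and each was read on 1 array from total RNA. The labels do not say what alters the receptor, from which species it comes, which promoter drives it or whether any receptor ligand was added.

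With 1 array per group there is no replicate, no test between the vectors can be made, and each difference below compares 2 arrays. Values are log2 signals, and differences are Ad-caERα minus Ad-DsRed. A signal was called measured when it passed a detection floor of 5.11 on at least 1 array, the level below which 95% of 1210 probe sets for olfactory and vomeronasal receptors lay. Differences over those silent probe sets had an SD of 0.22, and where a gene had several probe sets their differences scattered with an SD of 0.13. Esr1, which encodes mouse estrogen receptor α, had a signal of 7.38 with Ad-DsRed and 8.44 with Ad-caERα, and how far its probe set reads the introduced transcript is not known. All 10 skeletal muscle markers were measured, 3 with a higher and 7 (70%) with a lower signal with Ad-caERα, beside 48.8% of all measured genes lower. Their differences ran from -0.42 (Ttn) to 0.22 (Des). Myod1 was at 10.84 and 10.85, in that order of arrays, and Acta1 at 12.92 and 12.91. Among other cell types' markers, 3 of 6 adipocyte, 5 of 6 fibroblast, 2 of 8 leukocyte, 1 of 5 endothelial and 1 of 3 hepatocyte markers on the array were measured. Adipoq, Fabp4, Ptprc, Adgre1, Pecam1, Cdh5, Alb and Ttr were below the floor on both arrays. The measured leukocyte markers were Cd68 (6.38 and 6.62) and Cd3e (5.31 and 5.27). Tek (6.73 and 6.60) was the measured endothelial and Apoa1 (6.20 and 5.84) the measured hepatocyte marker. Differences of the 5 fibroblast markers ran from -0.28 (Pdgfra) to 0.065 (Dcn), with 2 above and 3 below 0. Col1a1, a collagen gene of fibroblasts that myoblast lines also express, was at 9.41 and 9.40.

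Of the 28 genes on the array, 23 were measured, 12 with a higher and 11 with a lower signal with Ad-caERα. None of the 23 differed by 2-fold or more, a size that 0.59% of all measured genes reached upwards and 0.0959% downwards. A difference of 0.32 on the log2 scale, a ratio of 5 to 4, was the smallest size counted, and by it 3 were higher (Nr4a1, Vdr and Nr4a3) and 1 was lower (Nr2f2). Over all 13554 measured genes 7.34% were higher and 6.76% lower by that much. Only Nr4a1 passed 1.5-fold, which 1.82% of measured genes passed upwards and 0.885% downwards. The members' median difference was 0.038, beside 0.0017 over all measured genes, and their median absolute difference was 0.15, beside 0.14. These counts and medians lie near those of the whole array, so the members are described one by one below. In bulk RNA, fewer cells of a type and less transcript per cell cannot be told apart.

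**Figure D1:**
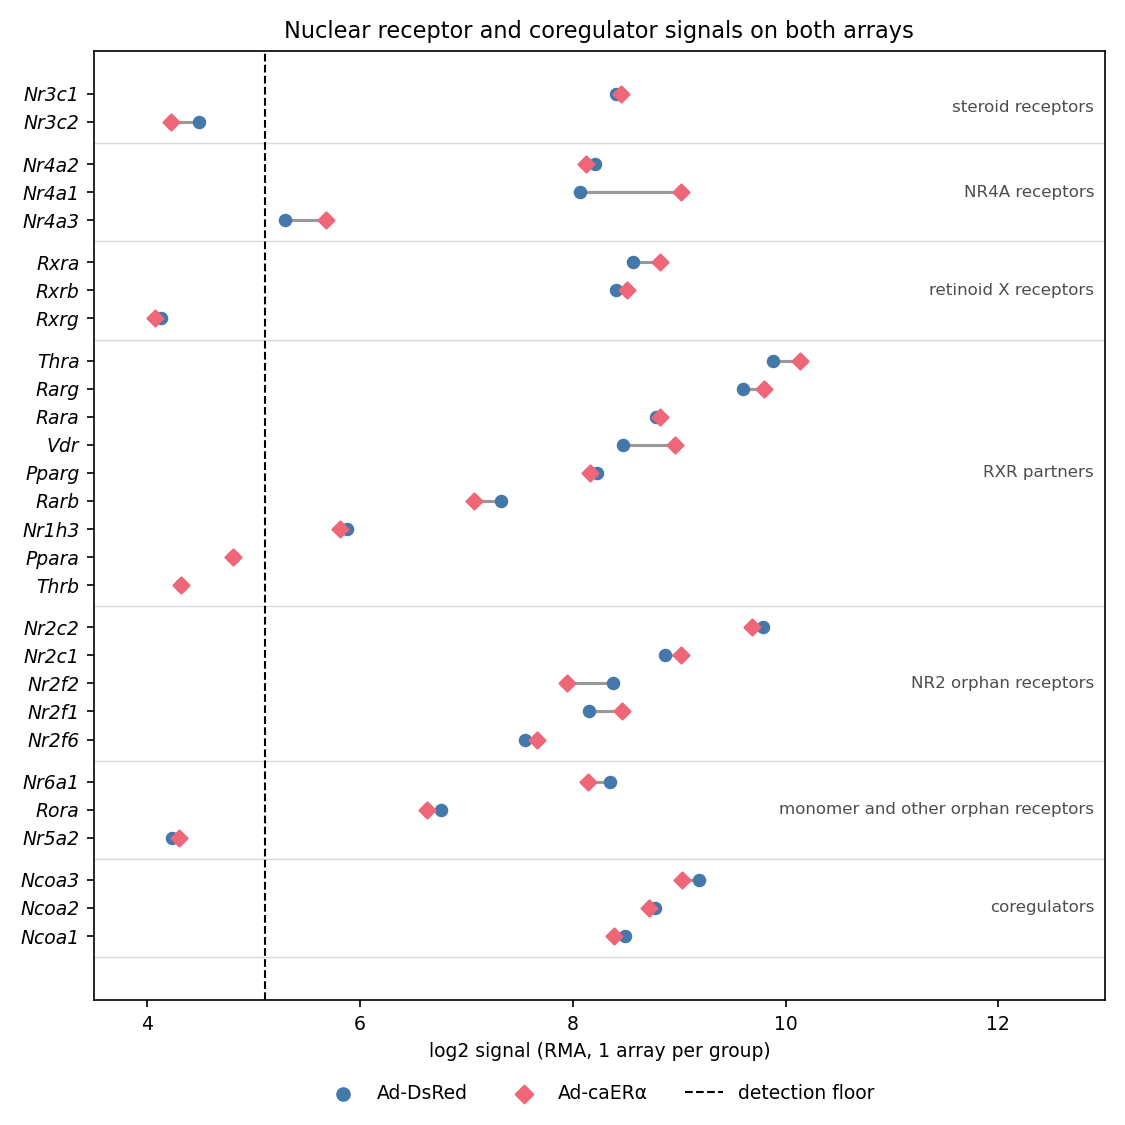
Log2 signal of the 28 members with a probe set, grouped by role, with 1 circle for the Ad-DsRed array and 1 diamond for the Ad-caERα array. The dashed line is the detection floor of 5.11, and Nr3c2, Rxrg, Ppara, Thrb and Nr5a2 lie to its left on both arrays. Positions of different genes are not comparable, because probe sets differ in brightness.

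The NR4A receptors are orphan receptors without a known natural ligand in the usual pocket, and are transcribed within minutes of calcium, cAMP or adrenergic signals. In muscle Nr4a1 and Nr4a3 are known for promoting glucose use and oxidative metabolism. Nr4a1 (Nur77) had the largest difference of the group, with a signal of 8.07 with Ad-DsRed and 9.02 with Ad-caERα. The difference of 0.95 is 1.93-fold and ranked 90th from the top among the 13554 measured genes. Nr4a3 (Nor1) was at 5.29 with Ad-DsRed and 5.68 with Ad-caERα, a difference of 0.39 or 1.31-fold. Both of its signals lie within 1 log2 unit of the floor, where the silent probe sets alone had an SD of 0.22. Nr4a2 (Nurr1), the family member best known from dopamine neurons, was at 8.21 and 8.13, a difference of -0.083. Nr4a1 thus lay far above its control signal and Nr4a3 above it by less. The difference of Nr4a2 is smaller than the SD of 0.13 among probe sets for 1 gene and gives no direction.

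The start regions of these 3 genes are shown because the family held the widest spread of differences and shares a sequence feature. Each window runs from 250 bases before to 50 bases after the start of the gene, from RefSeq on build GRCm38.p6, and is printed 5′ to 3′ on the strand of the gene. Capitals mark TGACG on either strand, the core of the cAMP response element, to which CREB proteins are known to bind.
Nr4a1, chr15:101266596-101266895, plus strand: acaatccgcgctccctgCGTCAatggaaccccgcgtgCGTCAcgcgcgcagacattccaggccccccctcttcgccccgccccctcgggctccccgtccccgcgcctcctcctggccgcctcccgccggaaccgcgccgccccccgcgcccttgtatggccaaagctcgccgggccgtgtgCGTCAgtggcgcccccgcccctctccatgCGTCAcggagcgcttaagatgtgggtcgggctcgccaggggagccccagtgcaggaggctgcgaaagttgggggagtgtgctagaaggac
Nr4a2, chr2:57123954-57124253, minus strand: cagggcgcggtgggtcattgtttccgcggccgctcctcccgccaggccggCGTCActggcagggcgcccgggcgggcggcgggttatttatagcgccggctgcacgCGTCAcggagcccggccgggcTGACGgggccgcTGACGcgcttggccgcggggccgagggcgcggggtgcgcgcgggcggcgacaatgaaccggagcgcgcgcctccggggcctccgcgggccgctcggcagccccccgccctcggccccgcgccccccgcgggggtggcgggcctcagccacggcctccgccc
Nr4a3, chr4:48045055-48045354, plus strand: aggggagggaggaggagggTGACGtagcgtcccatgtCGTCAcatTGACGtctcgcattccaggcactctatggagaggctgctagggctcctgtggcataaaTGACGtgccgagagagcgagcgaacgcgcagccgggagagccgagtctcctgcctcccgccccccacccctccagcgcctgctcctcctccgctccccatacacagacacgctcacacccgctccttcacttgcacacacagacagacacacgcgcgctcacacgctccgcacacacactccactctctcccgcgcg

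Each of the 3 windows holds 4 copies of TGACG. In Nr4a1 all 4 lie on the opposite strand, beginning at bases -233, -213, -69 and -40 from the start. Of 32851 windows of the same length, 20.8% hold at least 1 copy and 0.231% hold 4 or more. The window of Nr4a2, which had a difference of only -0.083, holds as many copies as that of Nr4a1. A link between the copies and the differences was not tested. The full palindrome TGACGTCA, which contains the core on both strands, is in none of the 3 and in 1.79% of all windows. A match is a description of letters and not a bound site.

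The classic estrogen response element, GGTCA followed after 3 bases by TGACC, was searched in the 41 start-region windows available for 26 members. It was in 0 of the 41, and in 0.07% of all 32851 windows. Its absence says only that these letters are not in these windows. The single site AGGTCA, which most nuclear receptors contact singly or in pairs, was in 9 of the 41 windows and in 16.3% of all windows. Those 9 windows belong to 8 members (Nr5a2, Nr6a1, Pparg, Rara, Rarg, Rxra, Rxrg and Thrb). The longer NR4A site AAAGGTCA, which contains that single site, was in 2 of the 41 windows (Rxra and Rxrg) and in 1.51% of all windows. Thra, Ncoa2, Ncoa3 and Nr3c1 had no entry in the promoter table.

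Retinoid X receptors are the common partners of the ligand-dependent receptors below. Rxra was at 8.56 with Ad-DsRed and 8.82 with Ad-caERα, a difference of 0.26, and Rxrb was at 8.41 and 8.51, a difference of 0.099. Rxrg, the form known from adult muscle and brain, was below the floor on both arrays, at 4.13 and 4.07. Both measured forms thus lay above their control signal by less than 0.32.

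Among the partners of these receptors, Vdr had the largest difference. It encodes the vitamin D receptor, which controls calcium uptake and is known to be more abundant in myoblasts than in adult muscle. Its signal was 8.47 with Ad-DsRed and 8.96 with Ad-caERα, a difference of 0.49 or 1.41-fold, at the 97.3rd percentile of all measured genes. Of 7 vitamin D receptor targets on the array 5 were measured. Of these 5, 0 passed 0.32 in either direction, beside 7.34% of all measured genes higher and 6.76% lower. The highest were Cd14, a co-receptor for bacterial lipopolysaccharide (a difference of 0.29), and S100g, a calcium-binding protein (0.24). Tnfsf11, which encodes the osteoclast factor RANKL, had a difference of -0.15, and the antimicrobial peptide gene Camp, below the floor with Ad-caERα, was at least 1.05-fold lower. With a lowess curve of the difference on the signal level subtracted, S100g reached 0.36 and 1 of the 5 passed 0.32. Ligand was not measured.

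The thyroid hormone receptors drive the fast fibre programme and calcium pumping in muscle. Thra, the main form in muscle, was at 9.88 with Ad-DsRed and 10.14 with Ad-caERα, a difference of 0.26. Thrb was below the floor, with a deposited value of 4.32 on both arrays. Of the 14 measured target genes, 2 were higher by 0.32, beside 7.34% of all measured genes. As deposited 3 were lower, and 2 once low signals were set to the floor, beside 6.76%. The gene lost was Ucp3, at least 1.08-fold lower. The median difference was -0.0096. Dio2, the deiodinase that makes the active hormone inside cells, was highest, at 8.77 against 9.51 (0.74), followed by the slow myosin gene Myh7 (0.50). Atp2a1, the fast calcium pump gene that thyroid hormone induces, was lowest (-0.52), followed by the coactivator gene Ppargc1a (-0.43). Both signals of Ppargc1a (5.86 with Ad-DsRed and 5.43 with Ad-caERα) lie within 1 log2 unit of the floor. With the lowess curve its difference was -0.35. The list held differences of both signs, and a shift of fibre type was not tested.

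The 3 retinoic acid receptors differed in direction. Rarg was at 9.60 with Ad-DsRed and 9.80 with Ad-caERα, a difference of 0.20, and Rara at 8.78 and 8.82, a difference of 0.038. Rarb, a receptor that is itself a target of retinoic acid, was at 7.33 and 7.08, a difference of -0.25 or 1.19-fold lower, at the 11.3rd percentile. It was the second lowest of the 23 measured genes. Its start region is shown because it carries the response element through which retinoic acid is known to act on it.
Rarb, chr14:16575427-16575726, minus strand, GRCm38.p6: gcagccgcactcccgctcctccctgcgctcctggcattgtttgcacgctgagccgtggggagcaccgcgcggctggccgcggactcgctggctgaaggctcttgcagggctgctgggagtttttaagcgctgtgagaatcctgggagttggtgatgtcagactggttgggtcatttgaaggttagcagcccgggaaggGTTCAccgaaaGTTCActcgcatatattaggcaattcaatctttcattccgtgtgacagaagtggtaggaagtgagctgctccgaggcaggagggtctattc

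Capitals mark GTTCA repeated after 6 bases, beginning at base -52 from the start of the gene. The same spacing of GTTCA on either strand is in 0.0761% of the 32851 windows and in no other window of a member. Of the 12 measured retinoic acid targets, 3 were lower by 0.32, beside 6.76% of all measured genes. Higher by that much was 1 gene on the values as deposited (Aldh1a1) and 0 once low signals were set to the floor, beside 7.34%. The lowest were Dhrs3, a retinaldehyde reductase (7.75 with Ad-DsRed against 7.26 with Ad-caERα), and Cyp26c1, a retinoic acid hydroxylase (5.80 against 5.31), each with a difference of -0.50. The third, named after its value was seen, was Crabp1, a retinoic acid-binding protein gene (-0.43). Both signals of Cyp26c1 lie within 1 log2 unit of the floor, and with the lowess curve its difference was -0.41. Aldh1a1, which makes retinoic acid, was below the floor with Ad-DsRed and at least 1.16-fold higher, a bound that gives it no rank against the transglutaminase gene Tgm2 (0.26). The list's median was 0.013 with 6 members on each side of 0, and Rarb is itself one of the 12.

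PPARs bind fatty acids and control lipid use. Pparg, known from fat cells, was at 8.22 with Ad-DsRed and 8.16 with Ad-caERα, a difference of -0.061. Ppara was below the floor, with a deposited value of 4.81 on both arrays. The fat cell genes Adipoq and Fabp4 were below the floor on both arrays, while Plin1 (5.64 and 5.40) and Cidec (5.58 and 5.26) lay just above it. Of 18 measured PPAR targets, 3 were higher by 0.32, beside 7.34% of all measured genes. Lower by that much were 2 on the values as deposited and 1 (Angptl4) once low signals were set to the floor, beside 6.76%. The lipoprotein lipase gene Lpl, with a difference of 1.98, was the 1 gene past 2-fold, beside 0.59% of all measured genes upwards. Acot1, a fatty acyl thioesterase, was below the floor with Ad-DsRed and at least 1.26-fold higher. Angptl4, an inhibitor of lipoprotein lipase, was lowest (-0.44), and Ucp3, a mitochondrial carrier, was below the floor with Ad-caERα and at least 1.08-fold lower. Their median was 0.083.

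The liver X receptors sense oxidised cholesterol. Nr1h3 (LXRα) was at 5.88 with Ad-DsRed and 5.81 with Ad-caERα, a difference of -0.067. Of the 14 measured targets only Lpl passed 0.32, beside 7.34% of all measured genes higher and 6.76% lower by that much. Lpl belongs to the PPAR list too, and Nr1h3 is itself one of the 14. The next highest was Lpcat3, a phospholipid-remodelling enzyme (0.25), and the lowest were the cholesterol exporter gene Abca1 (-0.17) and Apoe (-0.12). Without Lpl, the measured liver X receptor targets all lay within 0.32 of the control.

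**Figure D2:**
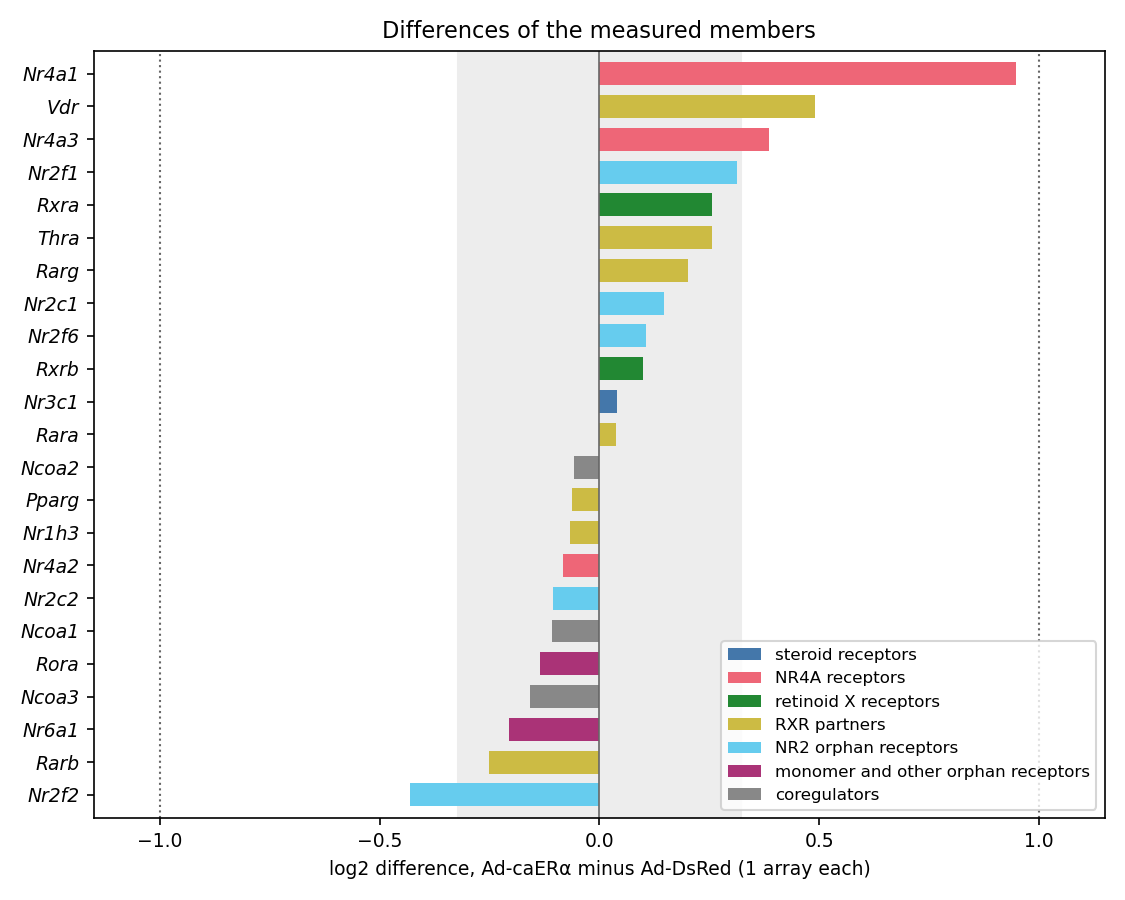
Difference in log2 signal between Ad-caERα and Ad-DsRed for the 23 measured members, 1 bar per gene, coloured by role. The grey band covers differences under 0.32 and the dotted lines mark 2-fold. Nr4a1, Vdr and Nr4a3 extend past the band to the right and Nr2f2 to the left, and no bar reaches 2-fold.

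The steroid receptors of the group are the glucocorticoid and mineralocorticoid receptors, which both bind glucocorticoid hormones. Nr3c1, the glucocorticoid receptor gene, was at 8.41 with Ad-DsRed and 8.45 with Ad-caERα, a difference of 0.039. Nr3c2 was below the floor, at 4.49 and 4.22. Of the 22 measured glucocorticoid targets 4 were higher and 0 lower by 0.32, beside 7.34% and 6.76% of all measured genes, while the list's median was -0.0086 with 11 members on each side of 0. The highest were Pdk4, a pyruvate dehydrogenase kinase that spares glucose, at 8.64 against 9.09 (0.45), and Fbxo32, the muscle ubiquitin ligase atrogin-1, at 9.92 against 10.36 (0.44). The lowest were Zbtb16 (-0.26) and Klf9 (-0.24), both transcription factors induced by glucocorticoids. Fkbp5, a widely used marker of glucocorticoid action, was at 6.73 and 6.71. The other 2 higher genes, named after their values were seen, were Tsc22d3, which encodes the anti-inflammatory protein GILZ (0.38), and the growth inhibitor gene Ddit4 (0.33). Ddit4 fell short of 0.32 after centring (0.30) and with the lowess curve (0.29), which left 3. Pdk4 is on the PPAR list too.

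The NR2 orphan receptors include the COUP-TF pair, which mostly repress and which also compete for sites of other receptors. The pair went opposite ways. Nr2f1 (COUP-TFI) was at 8.15 with Ad-DsRed and 8.46 with Ad-caERα, a difference of 0.31, which at 1.24-fold lies just under the size counted. Nr2f2 (COUP-TFII), which is known to hold back myoblast differentiation, was at 8.38 and 7.95, a difference of -0.43 or 1.35-fold lower. It had the lowest difference of the group, at the 2.77th percentile of measured genes. On the Ad-DsRed array Nr2f2 read higher than Nr2f1 and on the Ad-caERα array the order was reversed, although signals of different probe sets cannot be ranked as amounts. Nr2f6, Nr2c1 and Nr2c2, the last 2 encoding the testicular receptors TR2 and TR4, had differences of 0.11, 0.15 and -0.11. Those 3 all lay within 0.32 of the control.

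Among receptors that bind DNA alone or have other partners, Nr6a1 (germ cell nuclear factor) was at 8.35 with Ad-DsRed and 8.14 with Ad-caERα, a difference of -0.20. It had the third lowest difference of the measured members. Rora, an activator of the clock gene Arntl (Bmal1), was at 6.76 and 6.63, a difference of -0.14. Of 7 measured ROR targets Arntl was highest, at 7.79 against 8.35 (0.56), followed by Cry1 (0.18), and Cidec (-0.33) and Nr1d2 (-0.25) were lowest. Cidec did not reach 0.32 downwards with the lowess curve, which left 0 lower genes. Rora and Arntl thus had differences of opposite sign, although that of Rora is close to the SD of 0.13 among probe sets for 1 gene. Nr5a2, a receptor of liver, gut and gonad, was below the floor at 4.23 and 4.29.

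The coactivators Ncoa1, Ncoa2 and Ncoa3 all had slightly lower signals with the active receptor. Ncoa1 was at 8.50 with Ad-DsRed and 8.39 with Ad-caERα, Ncoa2 at 8.77 and 8.72, and Ncoa3 at 9.19 and 9.03. Their differences of -0.11, -0.057 and -0.16 are under 0.32, and 2 of the 3 are smaller than the SD of 0.13 among probe sets for 1 gene. Of 33 measured coregulators outside the group, 22 (66.7%) were also below 0, beside 48.8% of all measured genes, and their median was -0.11. Ncoa7, an estrogen receptor-associated protein gene (-0.38), and Ccar1, a coactivator that binds the Mediator complex (-0.24), were lowest. Trim24, a coregulator that reads histone marks (0.33), and Ncoa4, known both as a coactivator and as the carrier of ferritin to lysosomes (0.21), were highest. On the values as deposited Ncoa7 and Trim24 were the only 2 of the 33 past 0.32, 1 in each direction. Of all measured genes 7.34% were higher and 6.76% lower by that much. After centring (0.29) or the lowess curve (0.30) Trim24 fell short of 0.32. With the dependence of the difference on signal level removed by a smooth curve, 24 of the 33 were below 0 and their median was -0.13. Of all 13554 measured genes 6732 were then below 0, with a median of 0.0019.

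Of 14 nuclear receptor genes outside the group with a probe set, 6 were measured. Past 0.32 were 0 of the 6, beside 7.34% of all measured genes upwards and 6.76% downwards. Nr1d1, a haem-binding repressor of the clock, was highest (0.076), followed by Rorb (0.023), and Nr1d2 (-0.25) and Nr5a1 (-0.19) were lowest. Nr1d1 and Nr1d2 are on the list of ROR targets too. For the NR4A receptors the list of metabolic targets known from muscle had 11 measured genes. Of the 11, 0 were higher by 0.32, beside 7.34% of all measured genes. Lower by that much were 2 as deposited and 1 (Prkag3) once low signals were set to the floor, beside 6.76%. The gene lost was Ucp3, at least 1.08-fold lower, which is on the PPAR and thyroid hormone receptor lists too. The highest were Pygm, muscle glycogen phosphorylase (0.29), and Gpd1, glycerol-3-phosphate dehydrogenase (0.29). Prkag3, a subunit of the energy sensor AMPK, was lowest (8.65 with Ad-DsRed against 8.23 with Ad-caERα, -0.42). The list's median was 0.097. With the lowess curve subtracted, Gpd1 was higher by 0.40, so 1 gene then passed 0.32 upwards.

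**Figure D3:**
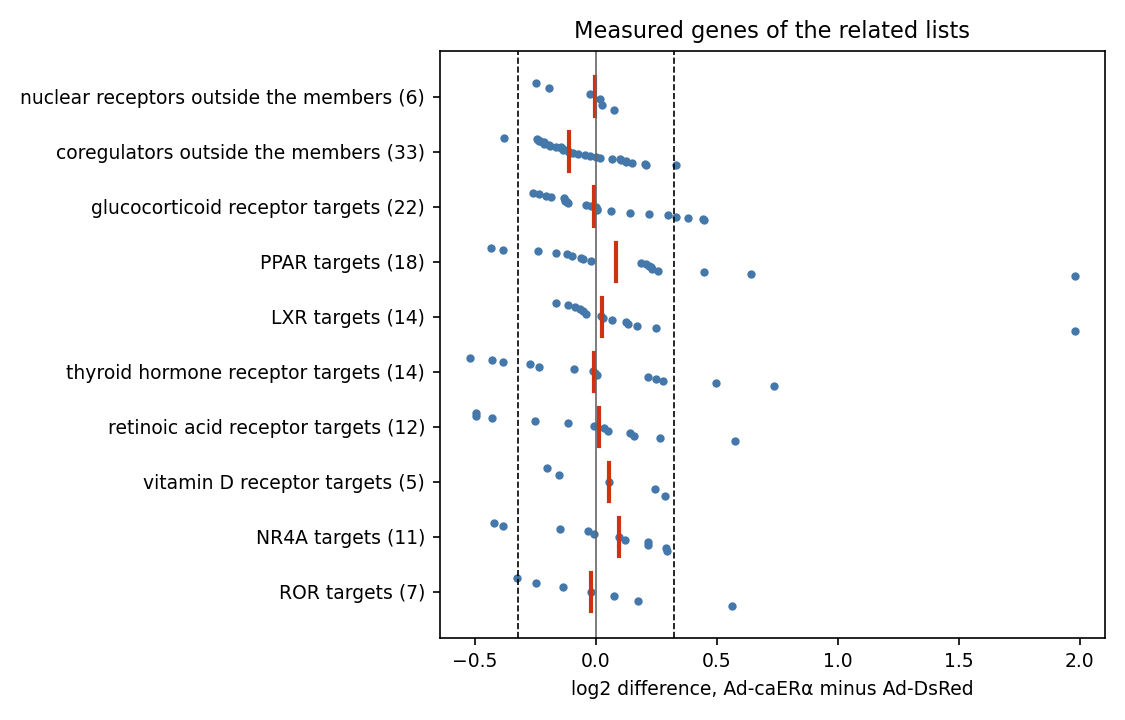
Difference in log2 signal for the measured genes of 10 related lists, 1 point per gene, with the number measured in brackets. The red bar is the list's median and the dashed lines mark 0.32 in each direction. All medians lie between -0.11 (coregulators) and 0.097 (NR4A targets), and Lpl, on 2 lists, is the outlying point at 1.98. Values are as deposited, also where 1 array lay below the floor.

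Ppara and Thrb carried the same deposited value on both arrays to the last digit. So did 855 of the 35556 probe sets (2.40%), of which 75.1% lay at or below the floor, where 35.4% of all probe sets lay. A difference of 0 for these receptors is therefore no measurement of an equal level.

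**Figure D4:**
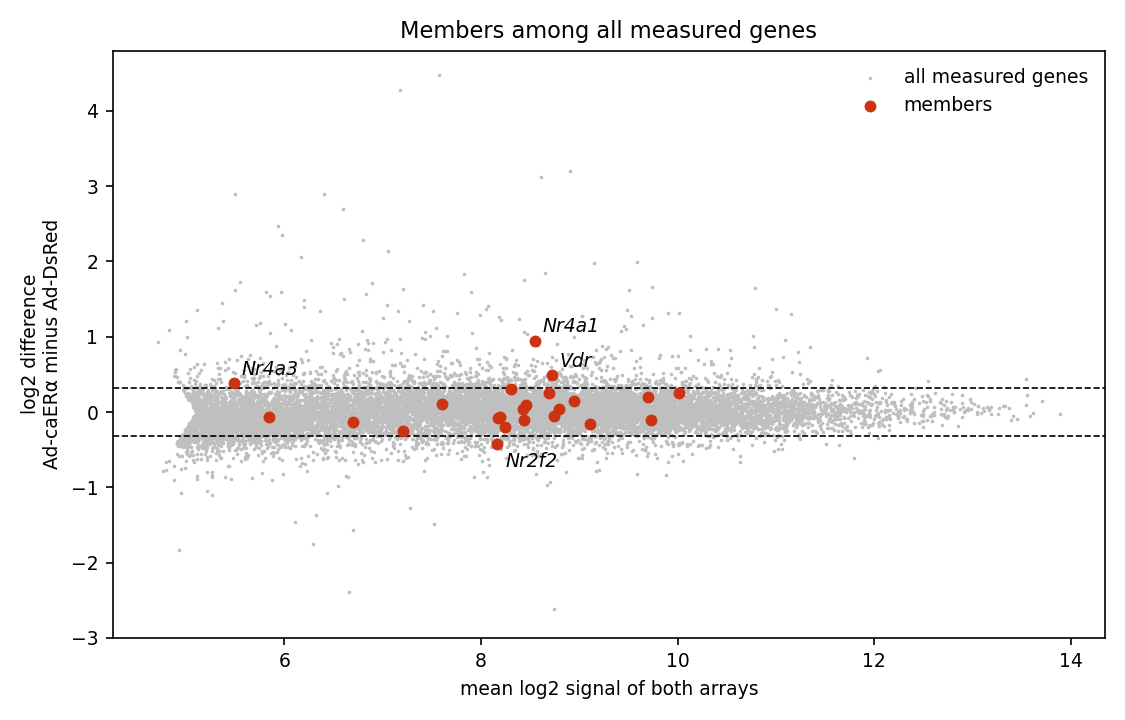
Difference in log2 signal against the mean signal of both arrays for all 13554 measured genes (grey) and the 23 measured members (red), with dashed lines at 0.32 in each direction. Most members lie inside the dense band, and Nr4a1 stands above it at a difference of 0.95.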

How the data were processed

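The authors deposited log2 signals, 1 value per probe set and sample. The submitters' processing notes name Affymetrix Expression Console and RMA, which corrects background, quantile-normalizes arrays and summarizes probes. No versions or filters are stated in the sources used here, and detection calls were not analysed. Quantile normalization hides a change in total mRNA, and RMA compresses weak signals.

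Genes were named from the platform annotation through probe sets with 1 gene (21789 of 35556, while 1621 name several and 12146 are unnamed here), and the identifiers of 21698 matched RefSeq. Where a gene had several, the brightest on average was taken. The floor, the counts past 0.32 (log2), 1.5-fold and 2-fold, the medians and a lowess curve (span 0.3) were computed with pandas 2.3.3, statsmodels 0.14.6 and numpy 2.4.6 under Python 3.11.15. The code was checked on simulated arrays. With 1 array per group no p-value is given.

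The members and the 10 related lists were chosen with earlier results of these data known. The rule for named genes took the 3 highest and 3 lowest members for full description, and of each related list the 2 highest and 2 lowest measured genes and any past 2-fold. Fkbp5 and the motifs were chosen after the values were seen.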

Additional observations from a re-analysis of the deposited data

How the results depend on the processing

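No paired analysis was possible because there was a single array for each vector, which also means that no replicate could be left out and that the spread between cultures is unknown. The counts of 3 higher and 1 lower members past 0.32 (log2) and of 0 at 2-fold held when probe sets were averaged, arrays were centred on their medians, a lowess curve was subtracted, or values below the floor were raised to it or kept without a floor. Averaging could not move the members, each with 1 probe set. With the 99th percentile of the silent probe sets (6.16) as the floor, Nr4a3 and Nr1h3 dropped out and 2 members were higher. At 1.5-fold the counts were 1 higher and 0 lower. The members' median of 0.038 became 0.0012 after centring or the lowess curve and 0 without a floor, and the mean was 0.070. Centring subtracted the same 0.037 from every measured gene, so the members' ranks among all genes stayed as they were. With the lowess curve the median of all measured genes was 0.0019. Of 92 recalculated differences of single members 1 changed sign (Nr1h3, to 0.0012 with the lowess curve), and none moved by more than 0.096. For the related lists, raising values below the floor, centring and the lowess curve were added after the values were seen. Each moved a count past 0.32 by at most 1 gene in either direction, and the genes concerned (Ucp3, Aldh1a1, Ddit4, Trim24, S100g, Gpd1 and Cidec) are given with their lists.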

Other observations

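Nr4a1, Nr4a2 and Nr4a3 belong to the immediate early genes, so 11 further genes of that class, chosen after values were seen, were read beside them. Their differences ran from -0.52 (Ier2) to 0.24 (Ier3), with 4 above 0 and 7 below 0 and a median of -0.062. Egr1, a zinc finger transcription factor gene, was at 10.55 with Ad-DsRed and 10.09 with Ad-caERα, and Fos at 5.93 and 5.62. Atf3, a stress-induced gene, was at 9.36 and 9.56. None of the 11 had a difference as high as the 0.39 of Nr4a3, while the -0.083 of Nr4a2 lay within their range. How soon after infection or a change of medium these genes were read is given by the labels only as the 48 h time point.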
